A study of Populus x canadensis with 12 samples.

Results

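Among 41335 gene models measured in poplar leaves, 139 rose at both steps of a drought series, first from watered to moderately dry plants and again from moderately to severely dry plants. They were chosen by their measured values in RPKM, a read count divided by the length of the gene model and by the size of the library. On the scale log2(RPKM + 1), the stage mean had to be at least 1 higher in moderate drought (D1) than in the watered control (C), and at least 1 higher in severe drought (D2) than in D1. The lowest D1 plant had to lie above the highest C plant, the lowest D2 plant above the highest D1 plant, and the mean in D2 had to reach 5 RPKM. The stage differences therefore chose these genes. Their stage values are given as a description, and nothing is read from their stage tests, which are printed once beside the background. Tests are read only for differences between hybrids and for genes chosen in one hybrid and measured in the other.

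The leaves came from 12 single plants, which were rooted cuttings kept in greenhouse pots. All were hybrids of a Populus deltoides female and a Populus nigra male (Populus x canadensis). Hybrid 89 and hybrid 85 gave 2 plants each in C, in D1 and in D2, and the clone numbers in the labels differ between all plants. Watering was withheld for 8 or 13 days, but the labels do not tie these periods to D1 and D2, nor do they give a harvest day or plant age per sample. Time and drought cannot be told apart. The labels say that the plants differed in relative water content, without values per plant. In whole leaves, fewer cells of a type and less RNA per cell cannot be told apart either.

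As background, a leaf that loses water accumulates the hormone abscisic acid. Its receptors then block protein phosphatases, which frees kinases and, through them, transcription factors that switch on protective genes. The best known products of these genes are late embryogenesis abundant proteins and dehydrins, enzymes that make sugars and other compatible solutes, heat shock proteins, and further transcription factors, while guard cells close the stomata. The deposited table does not pair its gene IDs with names. No role is therefore given to any gene here, and markers of leaf cell types could not be looked up. IDs are printed as deposited, and the chromosome number is the one written in the ID.

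Each part of the rule removed a different number of genes. Both steps reached 1 in 346 genes, and all of these had at least 5 RPKM in D2. Of the 346, 195 had every D1 plant above every C plant, 218 had every D2 plant above every D1 plant, and 139 had both. Over all tested genes these separations held in 9.33% and in 14%. Just outside were 79 genes that failed only the separation of D1 from C and 56 that failed only that of D2 from D1. A further 103 genes missed only the first step and 17 only the second. The 3 smallest first steps inside the rule were 1.01 to 1.03 and the 3 largest just outside were 0.987 to 0.996 (log2 differences), and for the second step these were 1.001 to 1.04 inside and 0.958 to 0.994 outside. The lowest D2 means inside were 5.38, 6.52 and 7.52 RPKM. All 139 genes passed the filter used for the tests, at least 1 RPKM in at least 4 libraries, and 129 would have passed it without the D2 plants.

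Most of the genes were low in watered leaves, and many were among the more abundant transcripts in severe drought, a contrast that the rule favours. Stage by stage, the median of their mean levels was 3.60 RPKM (C), 15.1 RPKM (D1) and 124 RPKM (D2). Over all tested genes these medians were 7.72, 8.71 and 8.28 RPKM. In C, 38 of the 139 were below 1 RPKM and 4 were at 100 RPKM or more. In D1 none was below 1 RPKM and 18 were at 100 RPKM or more, and in D2 this held for 80. Only 1 of them stood among the 500 genes with the highest mean in C, against 4 in D1 and 38 in D2. In D2, 11 were among the top 100, and the best rank was 21.

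**Figure D1:**
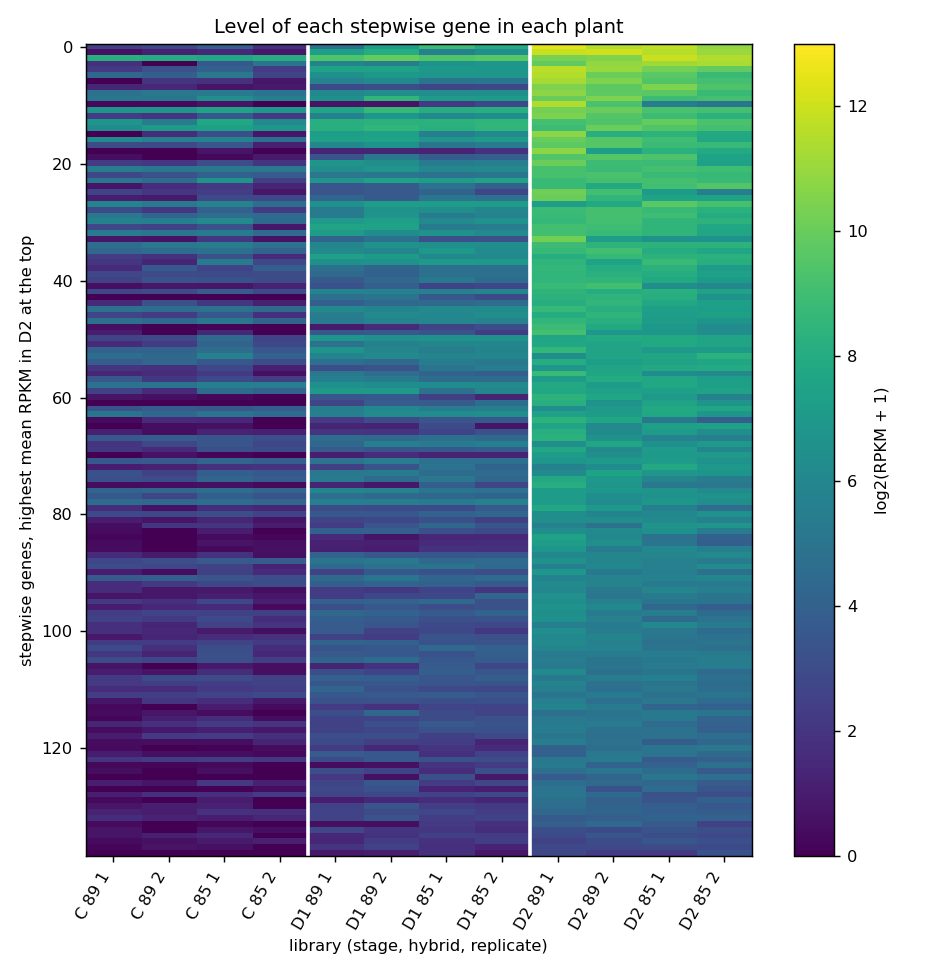
Heat map of log2(RPKM + 1) for the 139 genes (one line each, highest mean in D2 at the top) in the 12 plants, with C, D1 and D2 in blocks and hybrid 89 left of hybrid 85 in each block. The colour steps up from block to block in every line, as the rule required, and replicate 1 of hybrid 89 is the brightest D2 column, being the highest D2 plant in 80 of the 139 genes.

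On the scale log2(RPKM + 1), the step into severe drought was usually the larger one. The first step had a median of 1.62 on the log2 scale (range 1.01 to 5.86) and the second a median of 2.17 (range 1.001 to 7.14). The second was larger in 92 genes and the first in 47. This scale understates the first step of genes that are low in C, and 38 of the genes had a C mean below 1 RPKM. Whether these counts, or the log2 shares below, hold with less than 1 added to RPKM was not tested. Over both steps the median difference was 4.17 (range 2.17 to 10.65), and it reached 5 or more in 47 genes. Over the 135 genes with reads in C, the median ratio of the D2 mean to the C mean was 29.99. In RPKM the genes had reached a median of 19.6% of their D2 level by D1 (range 0.294 to 47.9%). On the log2 scale the median share of the whole rise already present at D1 was 44.2%: it was under 25% in 9 genes, 25 to 50% in 83, 50 to 75% in 46 and above 75% in 1.

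**Figure D2:**
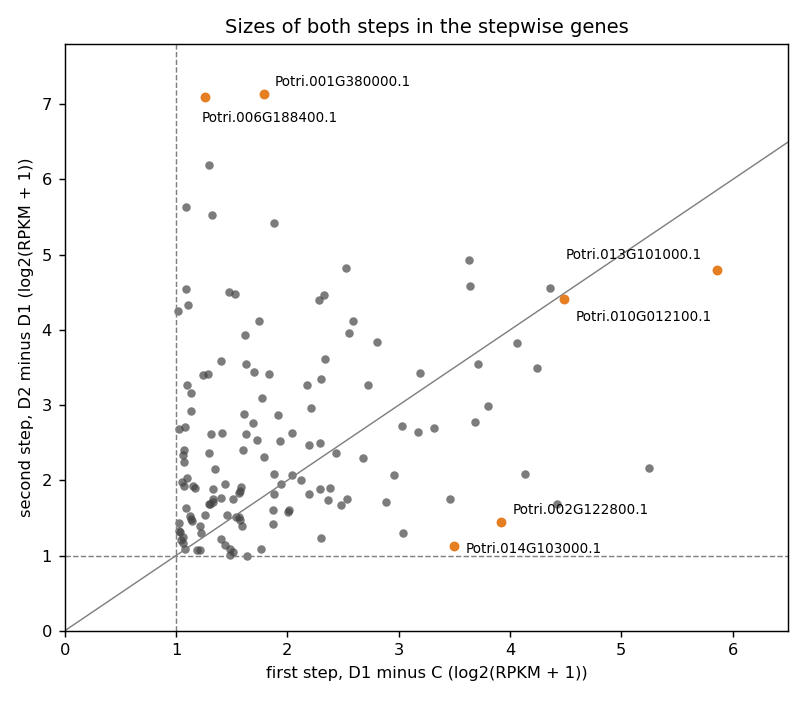
The second step (D2 minus D1, vertical axis) against the first step (D1 minus C, horizontal axis) for the 139 genes, both as differences of stage means of log2(RPKM + 1). Dashed lines mark the thresholds of the rule at 1, the solid line marks equal steps, and 92 genes lie above it; the 6 orange points are genes whose values are given in the text.

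A small group rose steeply at both steps: 35 genes had both steps at 2 or more, and 9 had both at 3 or more. Potri.013G101000.1 (number 13 in the ID, 990 bp of coding sequence) had 0.494 and 1.196 RPKM in hybrid 89 and 1.73 and 0.763 RPKM in hybrid 85 in C. In D1 it had 161 and 259.9 RPKM in hybrid 89 and 48.9 and 83.0 RPKM in hybrid 85, and in D2 3820.4 and 4306 RPKM in hybrid 89 and 2976 and 2146 RPKM in hybrid 85. No stage overlapped another, and both hybrid 89 plants were above both hybrid 85 plants in D1 and D2. Its steps were 5.86 and 4.79, the largest whole rise of the 139. The D2 mean was 3312 ± 952 RPKM and the C mean 1.05 ± 0.54 RPKM (SD, n = 4), a ratio of 3168.

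The highest mean level in D2 belonged to Potri.010G012100.1 (chromosome number 10, 324 bp). It had 4.53 and 6.09 RPKM in hybrid 89 and 14.4 and 2.33 RPKM in hybrid 85 in C. The D1 values were 28.4 and 148 RPKM in hybrid 89 and 470.5 and 246 RPKM in hybrid 85, and the D2 values 5609 and 2918 RPKM in hybrid 89 and 3506 and 1809.6 RPKM in hybrid 85. Both D1 plants of hybrid 85 were above both of hybrid 89, while in C and D2 the hybrids overlapped. Its steps were 4.49 and 4.41, close to equal, and its D2 mean was 3461 ± 1596 RPKM (SD, n = 4).

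In other genes most of the log2 rise came at the second step. Potri.006G188400.1 (chromosome number 6, 1101 bp) was listed at 0 in 3 C plants and at 0.691 RPKM in replicate 1 of hybrid 85, from 8 reads. It had 1.58 and 1.499 RPKM in hybrid 89 and 1.43 and 2.56 RPKM in hybrid 85 in D1. In D2 it had 1692 and 151 RPKM in hybrid 89, and 309.9 and 246 RPKM in hybrid 85. The 2 plants of hybrid 89 were the highest and the lowest of D2. On the scale log2(RPKM + 1), only 15.1% of its rise lay in the first step, the smallest share of the 139. Its C level is so low that this scale understates the first step. Potri.001G380000.1 (chromosome number 1, 915 bp) had the largest second step, 7.14, after a first step of 1.79. It had 1.60, 1.72, 0.624 and 0.826 RPKM in C, with hybrid 89 first, and 6.52, 7.67, 5.50 and 6.15 RPKM in D1. Its D2 values were 1451 and 848 RPKM in hybrid 89 and 1409 and 691 RPKM in hybrid 85, so the hybrids overlapped there.

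On the scale log2(RPKM + 1), the first step was the larger one in 47 genes, of which 2 with large first and small second steps follow. Potri.014G103000.1 (chromosome number 14, 717 bp) had 5.45 and 6.05 RPKM in hybrid 89 and 22.03 and 5.27 RPKM in hybrid 85 in C. It had 114 and 90.6 RPKM in hybrid 89 and 99.9 and 99.8 RPKM in hybrid 85 in D1, and 208 and 246 RPKM in hybrid 89 and 241 and 194 RPKM in hybrid 85 in D2. The D1 and D2 plants lay close together within each stage, and 1 C plant, replicate 1 of hybrid 85, stood above the other 3. The first step was 75.7% of the rise, the largest share of the 139. Potri.002G122800.1 (chromosome number 2, 261 bp) had 3.12 and 1.51 RPKM in hybrid 89 and 38.6 and 5.79 RPKM in hybrid 85 in C, and the same C plant was highest. It had 89.5, 103, 129 and 119.8 RPKM in D1, with hybrid 89 first, and 361, 182, 444 and 279 RPKM in D2, and its steps were 3.92 and 1.45.

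Only 4 of the genes were already at 100 RPKM or more in watered leaves, and Potri.004G086500.1 (chromosome number 4, 357 bp) was the highest of these. It had 292 and 265 RPKM in hybrid 89 and 218 and 271 RPKM in hybrid 85 in C. In D1 it had 678 and 981 RPKM in hybrid 89, and 691 and 793 RPKM in hybrid 85. The D2 values were 1298 and 1502 RPKM in hybrid 89 and 3983 and 2794 RPKM in hybrid 85. Here both D2 plants of hybrid 85 were above both of hybrid 89. Its steps were 1.58 and 1.47, and the D2 mean was 9.15 times the C mean.

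Another 4 genes had no read in any C plant, and 9 in all had at most 3 reads over the 4 C plants. Potri.010G142900.1 (chromosome number 10, 432 bp) was at 0 in C. It had 26.5 and 31.0 RPKM in hybrid 89 and 10.9 and 6.51 RPKM in hybrid 85 in D1, and 328 and 347 RPKM in hybrid 89 and 269 and 101 RPKM in hybrid 85 in D2. Hybrid 89 was above hybrid 85 in every plant of both drought stages. Against a floor of 3 reads over the C libraries, its mean was at least 58.9-fold higher in D1 and at least 821-fold higher in D2 than in C. Potri.012G082800.1 (chromosome number 12, 363 bp), also at 0 in C, had 5.48, 12.5, 12.1 and 24.97 RPKM in D1 with hybrid 89 first. Its D2 values were 292 and 99.5 RPKM in hybrid 89 and 177 and 105 RPKM in hybrid 85. The hybrids overlapped in both stages, and the mean was at least 36.4-fold higher in D1 and at least 445-fold higher in D2 than in C. Such bounds cover counting error only.

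Plants of one stage agreed closely in some of the genes and spread widely in others. The ratio of the highest to the lowest D2 plant had a median of 2.54 and reached 5 or more in 22 genes. It was smallest, 1.13, in Potri.001G115800.1 (chromosome number 1, 1011 bp), with 42.1 and 43.8 RPKM in hybrid 89 and 44.2 and 39.3 RPKM in hybrid 85 in D2. The same gene had 11.3, 10.8, 8.70 and 14.5 RPKM in D1, with hybrid 89 first, and 3.38, 1.56, 7.91 and 1.87 RPKM in C. It was largest, 89.0, in Potri.006G128900.1, which is described with the hybrids.

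Together, the 139 genes took a growing part of the library. Their reads made up 0.140 and 0.130% of all reads in hybrid 89 and 0.219 and 0.127% in hybrid 85 in C, and 0.578 and 0.682% in hybrid 89 and 0.519 and 0.531% in hybrid 85 in D1. In D2 they made up 5.82 and 3.97% in hybrid 89 and 3.18 and 2.47% in hybrid 85. The stages did not overlap, and in D2 both hybrid 89 plants were above both hybrid 85 plants. The rule fixes the order of the stages but not that of the hybrids.

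**Figure D3:**
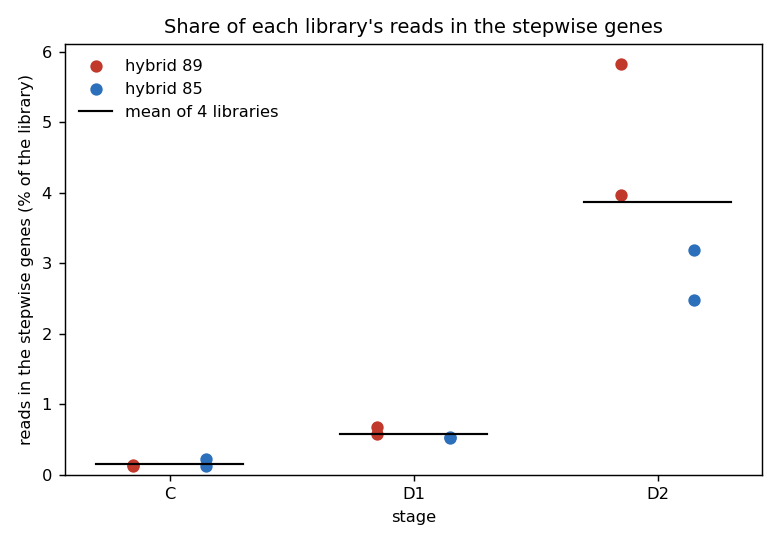
Percent of each library's reads that fell in the 139 genes, by stage, with hybrid 89 in red left of hybrid 85 in blue and a line at the mean of 4 plants. The D2 plants lie between 2.47 and 5.82%, the D1 plants between 0.519 and 0.682% and the C plants between 0.127 and 0.219%.

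Single plants stood apart within C and within D2. In C, replicate 1 of hybrid 85 was the highest plant in 87 of the 139 genes (62.6%), against 33.2% of all tested genes. This library was also the deepest, with 10509089 reads against 2259634 to 6138710 in the others. The rule gave 201 genes without it. In D2, replicate 1 of hybrid 89 was highest in 57.6% of the genes, against 26.3% of all tested genes, and replicate 2 of hybrid 85 was lowest in 83 of them. The rule gave 149 genes without this hybrid 89 plant and 171 without this hybrid 85 plant. In D1 each plant was highest in 31 to 43 genes. The part of depth in the order of the C plants was not tested. The median reads per gene among the 139 were 6 to 54 for the C plants, 54 to 88 for the D1 plants and 229 to 457 for the D2 plants, so levels in C rest on few reads.

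The stage tests, made with limma over all 24117 tested genes at an adjusted p below 0.05, gave the size of the background. In D1 over C, 106 of the 139 genes passed, where 3.14% of all tested genes were higher. In D2 over D1, 137 passed (background 15.8%), and in D2 over C, 139 (background 21.6%). The same contrasts chose the genes, so nothing is read from these counts. The median log2 difference of all tested genes was 0.14 in D1 over C and -0.12 in D2 over D1. With median-ratio scaling these shifts were -0.02 and -0.09, and 107 of the 139 genes still met the rule. The share of all D1 over C calls that were rises was 56.5%, but 43.3% after quantile normalization and 35.4% after median-ratio scaling.

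The rule was next applied within each hybrid alone, so that genes chosen in one could be read in the other, whose 6 plants had no part in the choice. In the 6 plants of hybrid 89, 423 genes met it, and in those of hybrid 85, 287. Both lists held 114 genes, which is 27.0% of the list of hybrid 89 and 39.7% of that of hybrid 85. Of all tested genes, 1.19% met the rule in hybrid 85 and 1.75% in hybrid 89. Of the 139 genes, 114 were on the list of hybrid 89 and 105 on that of hybrid 85.

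Genes chosen in one hybrid were often higher at the second step in the other as well, and fewer passed at the first step. Of the 421 tested genes chosen in hybrid 89, 216 (51.3%) were higher in D2 than in D1 in hybrid 85 (limma on that hybrid's 6 plants, adjusted p below 0.05), where 10.3% of all tested genes were. Of the 287 chosen in hybrid 85, 206 (71.8%) were higher in D2 than in D1 in hybrid 89, against 12.8%. The median second step in the other hybrid was 1.44 for genes chosen in hybrid 89 (all tested genes, -0.06) and 2.55 for genes chosen in hybrid 85 (all tested genes, -0.16). For the first step, 84 genes (20.0%) chosen in hybrid 89 were called in hybrid 85, where 1.95% of all tested genes were, and 36 (12.5%) chosen in hybrid 85 were called in hybrid 89, where 0.605% were. The median first step in the other hybrid was 0.82 and 1.10 in the same order of lists, against -0.01 and 0.26 for all tested genes. Whether the shares of the steps differ was not tested.

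These calls depended on single plants. In hybrid 85, no gene chosen in hybrid 89 was called at the first step without replicate 2 in C or without any one of its D1 or D2 plants. In hybrid 89, no gene chosen in hybrid 85 was called without any one of its C or D1 plants, and 21.3 and 20.2% were called without replicates 1 and 2 in D2. The second step in hybrid 85 was called in 16.2 and 14.3% of the list without replicates 1 and 2 in D1, and in 17.9 and 29.0% without replicates 1 and 2 in D2. In hybrid 89 it was called in 29.6 and 40.1% without replicates 1 and 2 in D1. In the fits with no such first-step call, and in these second-step fits, the share of all tested genes called higher at that step was also smaller than with all plants. With 5 plants left, such fits have 2 residual degrees of freedom before the spread is shared over genes. Direction needs no call: both steps were above 0 in the other hybrid for 307 genes (72.6%) chosen in hybrid 89 and for 237 (82.6%) chosen in hybrid 85. Among all tested genes both steps were above 0 in 20.5% in hybrid 85 and in 26.8% in hybrid 89.

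**Figure D4:**
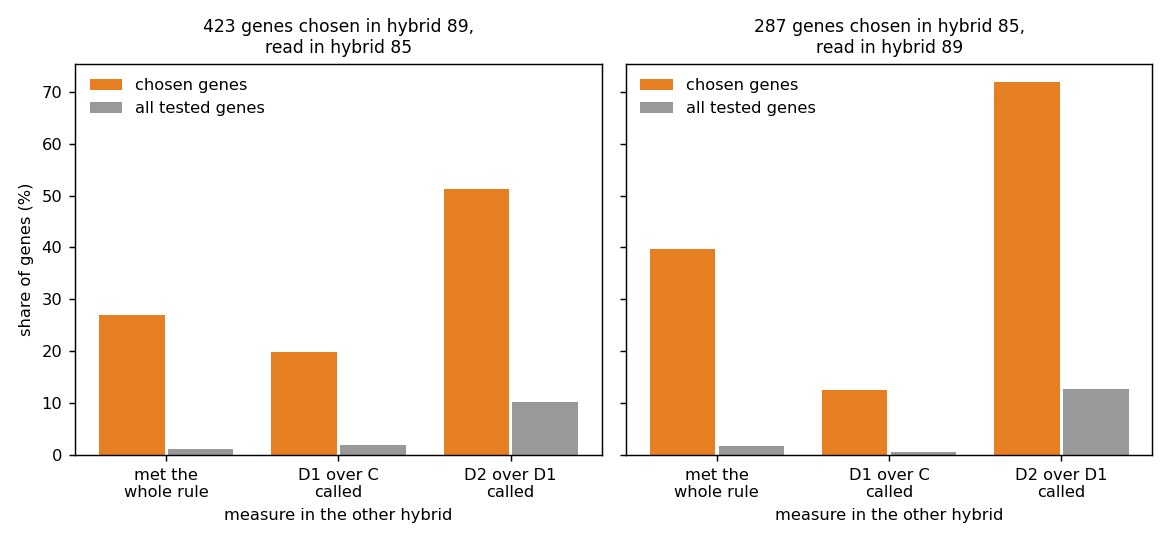
Percent of genes chosen within one hybrid (orange) and of all tested genes (grey) that met the whole rule, or were called higher by limma at the first or second step, in the other hybrid. For genes chosen in hybrid 89 the orange bars are 27.0, 20.0 and 51.3%, and for genes chosen in hybrid 85 they are 39.7, 12.5 and 71.8%.

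The hybrids were compared over all 3 stages in the 139 genes. With stage in the limma model, 2 of them (1.44%) differed between hybrid 89 and hybrid 85 at an adjusted p below 0.05, 1 in each direction. Of all tested genes 2.94% differed, 0.974% being higher and 1.97% lower in hybrid 89. The rule bars overlap between stages and so limits the spread within a stage, which bounds a hybrid difference in these genes and also enters its test. Potri.013G041600.1 (chromosome number 13, 615 bp) was lower in hybrid 89. It had 1.06 and 1.28 RPKM in hybrid 89 and 2.63 and 3.07 RPKM in hybrid 85 in C. In D1 it had 4.45 and 9.39 RPKM in hybrid 89 and 30.2 and 17.3 RPKM in hybrid 85, and in D2 51.2 and 79.0 RPKM in hybrid 89 and 232 and 121 RPKM in hybrid 85. Both plants of hybrid 89 were below both of hybrid 85 in every stage. The log2 difference, hybrid 89 minus hybrid 85, was -1.29 ± 0.25 (SE, limma adjusted p = 0.0184).

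Potri.012G023700.1 (chromosome number 12, 828 bp) was higher in hybrid 89. It had 0.590 and 0.477 RPKM in hybrid 89 and 0.230 and 0 RPKM in hybrid 85 in C, from 6 reads in all. In D1 it had 9.91 and 11.0 RPKM in hybrid 89 and 4.55 and 1.51 RPKM in hybrid 85, and in D2 341 and 201 RPKM in hybrid 89 and 123 and 49.4 RPKM in hybrid 85. Both plants of hybrid 89 were above both of hybrid 85 in every stage, and the log2 difference was 1.27 ± 0.31 (SE, limma adjusted p = 0.0470). Its call was lost in 11 of 12 fits with 1 plant left out, all but the one without replicate 1 of hybrid 85 in C, at limma adjusted p from 0.0525 to 0.116, while the difference stayed between 1.05 and 1.38. The call of Potri.013G041600.1 was lost only without replicate 1 of hybrid 85 in D1 (limma adjusted p = 0.0512). Of the 139 genes, none was called without that plant, and fewer of all tested genes were called as well. Without replicate 1 of hybrid 85 in C, more of the 139 but fewer of all tested genes were called. Without replicate 2 of hybrid 89 in D2 or replicate 2 of hybrid 85 in C, the calls among the 139 were all lower in hybrid 89. Leaving out any one of the other 8 plants left 1, which was lower in hybrid 89.

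The order of the hybrids was counted in each stage. In C, both hybrid 89 plants were above both hybrid 85 plants in 8 of the 139 genes (5.8%; all tested genes, 10.7%) and below them in 30 (21.6%; all tested genes, 31.9%). In D1 they were above in 42 genes (30.2%; all tested genes, 35.4%) and below in 34 (24.5%; all tested genes, 25.4%). In D2 they were above in 65 genes (46.8%; all tested genes, 24.7%) and below in 15 (10.8%; all tested genes, 23.2%). All these counts rest on the same 12 plants.

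The first step did not differ detectably between the hybrids in any one of the 139 genes. For the D1 response in hybrid 89 minus that in hybrid 85, limma called 0 of 24117 tested genes, or 0%, as did limma-voom on recovered reads. At an unadjusted p below 0.05 it was 25 of the 139 genes and 16.8% of all tested genes. The smallest p among the 139 belonged to Potri.006G013900.1 (chromosome number 6, 1635 bp). It had 4.68 and 1.93 RPKM in hybrid 89 and 22.9 and 15.9 RPKM in hybrid 85 in C. In D1 it had 135 and 127 RPKM in hybrid 89, and 28.3 and 59.3 RPKM in hybrid 85. Hybrid 89 was below hybrid 85 in both C plants and above it in both D1 plants, while in D2 the hybrids overlapped, at 218 and 173 RPKM in hybrid 89 and 163 and 180.1 RPKM in hybrid 85. The first step was 5.01 in hybrid 89 and 1.06 in hybrid 85, a difference of 3.95 ± 0.56 (SE, limma adjusted p = 0.0616). The limma adjusted p became 0.0322 and 0.0320 when replicates 1 and 2 of hybrid 89 in D2 were left out in turn, and 0.0423 when replicate 1 of hybrid 85 in C was left out.

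The second step differed between the hybrids in 7 of the 139 genes, and in each of them it was larger in hybrid 89. This is 5.04%, where 0.904% of all tested genes were called in that direction, 1.15% in the other and 2.05% in either (limma, adjusted p below 0.05). The rule required a rise from D1 to D2 without overlap, so this test uses values that also chose the genes. Of the 139, 129 would have passed the filter without their D2 plants. All tested genes are therefore not a like background, and nothing is concluded from the difference in shares. In all 7 the C mean was under 10 RPKM, where 38 of the 139 were below 1 RPKM and 67 between 1 and 10 RPKM. In all 7 the D1 mean was lower and the D2 mean higher in hybrid 89 than in hybrid 85, an order that the call itself favours. Their differences on the log2 scale ran from 1.86 to 6.89. All 139 genes were chosen for a second step of at least 1, and they share the same plants. The shares of larger second steps that follow therefore have no like background either, and nothing is concluded from how they differ. The median difference in the second step was 0.47 over the 139 genes and -0.10 over all tested genes. The second step was larger in hybrid 89 in 92 of the 139 (66.2%), against 45.3% of all tested genes. Without replicate 1 of hybrid 89 in D2 it was larger in 82 genes against 50.0% of all tested genes, and the median difference was 0.20. Without replicate 2 of hybrid 85 in D2 it was larger in 83 genes, and the median difference was 0.26.

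The largest difference was in Potri.006G128900.1 (chromosome number 6, 1575 bp). It passed the filter for the tests only through its D2 plants. Of the C and D1 plants, only those of hybrid 85 in D1 reached 1 RPKM, and the D1 plants together held 58 of its reads. In C it had 0.207 and 0.251 RPKM in hybrid 89, and 0.604 and 0 RPKM in hybrid 85. In D1 it had 0.631 and 0.655 RPKM in hybrid 89 and 3.59 and 6.15 RPKM in hybrid 85, and in D2 2789.6 and 616 RPKM in hybrid 89 and 45.0 and 31.4 RPKM in hybrid 85. The hybrids changed places: hybrid 85 was the higher one in D1 and hybrid 89 in D2, without overlap. Its first step was 0.42 in hybrid 89 and 2.18 in hybrid 85, so that in hybrid 89 alone it did not meet the rule. The second step was 9.64 in hybrid 89 and 2.75 in hybrid 85, a difference of 6.89 ± 0.82 (SE, limma adjusted p = 0.00665), and it was called in every fit with 1 plant left out.

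Potri.009G081800.1 (chromosome number 9, 2970 bp) showed the same exchange, and it too passed the filter only through its D2 plants. It had 0.329 and 0.399 RPKM in hybrid 89 and 0.481 and 0.254 RPKM in hybrid 85 in C. In D1 it had 1.51 and 0.764 RPKM in hybrid 89 and 13.97 and 5.58 RPKM in hybrid 85, and in D2 273 and 109 RPKM in hybrid 89 and 35.3 and 34.9 RPKM in hybrid 85. The hybrids overlapped in C, hybrid 89 was lower in D1 and it was higher in D2. Its second step was 6.36 in hybrid 89 and 1.86 in hybrid 85, a difference of 4.50 ± 0.68 (SE, limma adjusted p = 0.0148). This call was lost, at limma adjusted p from 0.0511 to 0.0823 and differences of 3.91 to 4.75, without either D1 plant of hybrid 89, replicate 1 of hybrid 85 in D1, or either D2 plant of hybrid 85.

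**Figure D5:**
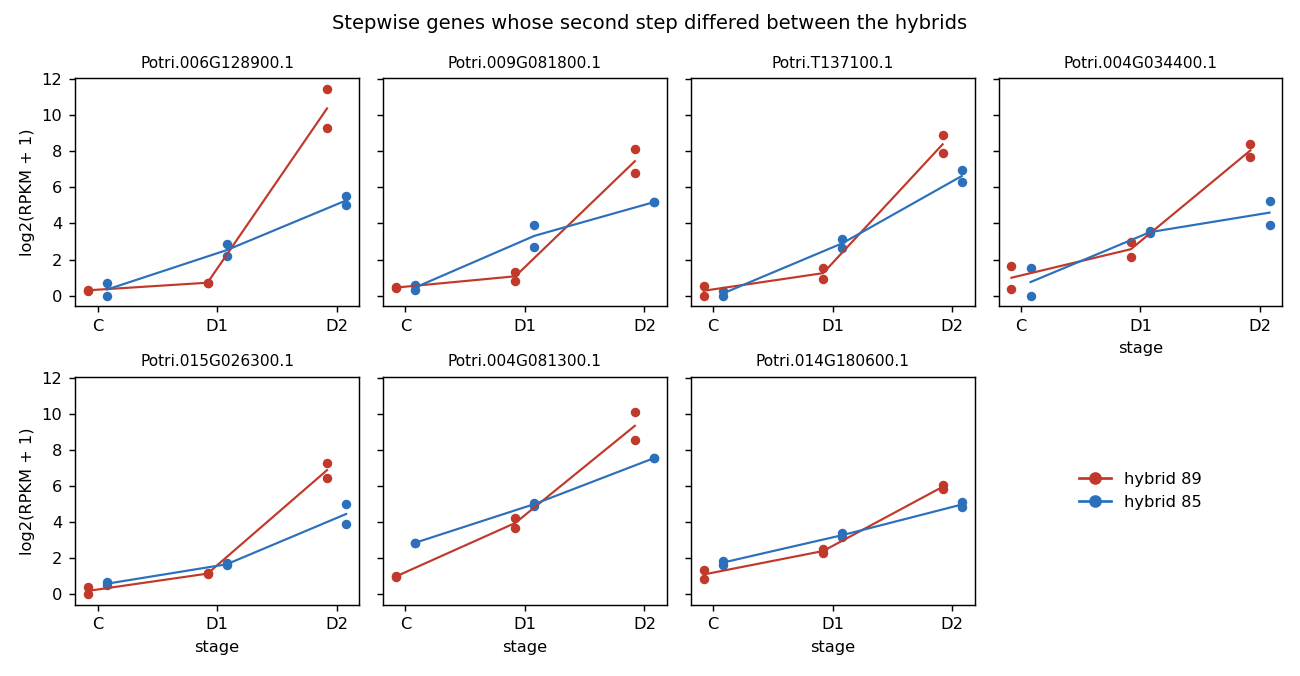
log2(RPKM + 1) by stage for the 7 genes whose second step was called different between the hybrids, with each plant as a point and lines through the mean of 2 plants, hybrid 89 in red and hybrid 85 in blue. In each panel the red line lies below the blue one at D1 and above it at D2, an order that the call favours.

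The number called for the second step moved with single plants. It was smaller without any one of the C or D1 plants, either D2 plant of hybrid 85 or replicate 1 of hybrid 89 in D2. In each of these fits fewer of all tested genes were called as well, so the loss was not particular to the genes rising at both steps. Each such fit leaves 1 plant in a group, so its counts are not given here. Without replicate 2 of hybrid 89 in D2 the number was larger, and so was the count over all tested genes. Not all calls of that fit were larger second steps in hybrid 89. Over all tested genes, most of its calls were smaller second steps in hybrid 89. The number of genes with a larger second step in hybrid 89 lay between 82 without replicate 1 of hybrid 89 in D2 and 101 without replicate 1 of hybrid 85 in D2.

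Values of genes that rose at 1 step only were set beside these. In 1437 genes the second step was at least 1 without overlap and the first was under 0.5 in size, and in 234 genes the first step was at least 1 without overlap and the second was under 0.5 in size, with the same minimum in D2. The median C level was 3.60 RPKM in the genes rising at both steps, 12.5 RPKM in the genes rising at the second only and 7.47 RPKM in those rising at the first only. A larger second step in hybrid 89 was called in 5.04% of the genes rising at both steps, in 2.11% of those rising at the second only and in 0 of those rising at the first only. The median coding length was 1038 bp in the genes rising at both steps (range 165 to 3324 bp), 921 bp and 954 bp in the other sets, and 1107 bp over all tested genes. No test of these differences was made.

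The IDs place the genes on 18 of 19 chromosome numbers, and 3 have none. Their share was highest on number 12 (1.46%, 12 of 820 tested genes) and number 9 (1.23%, 13 of 1060), and lowest on number 17 (0 of 856). Over all numbers it was 139 of 24117 tested genes. Whether the shares differ was not tested. In 9 pairs the IDs were at most 10 places apart, and in 1 pair they were neighbours. Potri.007G091000.1 (519 bp) had 5.96, 6.84, 12.1 and 6.55 RPKM in C with hybrid 89 first, and 56.5, 49.3, 51.5 and 58.4 RPKM in D1. Its D2 values were 354 and 264 RPKM in hybrid 89, and 305 and 179 RPKM in hybrid 85. Potri.007G091100.1 (510 bp) had 1.92, 10.8, 5.04 and 14.1 RPKM in C and 26.8, 16.6, 25.9 and 25.7 RPKM in D1, again with hybrid 89 first. It had 385 and 262 RPKM in hybrid 89 and 329.7 and 145 RPKM in hybrid 85 in D2. The neighbours had near-equal means in C, 7.86 ± 2.85 and 7.96 ± 5.50 RPKM, and in D2, 275 ± 74.1 and 281 ± 103 RPKM (SD, n = 4). In D1 they were at 53.9 ± 4.26 and 23.8 ± 4.80 RPKM, without overlap. The nearest tested IDs on either side had steps of -0.43 and -0.99 and of 0.41 and 0.56, so neither met the rule. If the neighbours are near-identical copies, reads may be split between them, which was not tested.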

How the data were processed

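Leaf RNA of 12 plants was turned into TruSeq libraries for an Illumina HiSeq2000, per the labels' protocols. The authors deposited RPKM values per gene and library, per the file header, and 3 columns of stage means, which were not used. Per the submitters' processing notes, Trimmomatic 0.32 was among the tools. Not given in the sources used here are the aligner, the counter, how it treated strand and multiply mapped reads, the genome build and the annotation, so reads shared between near-identical copies or overlapping genes are uncertain.

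Each RPKM value was a whole number of reads times the worth of 1 read (100.0% of values, tolerance 0.01 reads), which gave back reads, library totals of 2259634 to 10509089 and coding lengths, all multiples of 3 bp in well-read genes. A level in RPKM depends on the reads of all other genes. The floor of 3 reads reflects counting error alone.

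Tests were made on log2(RPKM + 1), for the 24117 genes that reached 1 RPKM in 4 or more libraries, with limma 3.58.1 in R 4.3.3 (trended empirical Bayes, Benjamini-Hochberg over all tested genes, adjusted p below 0.05), with stage and hybrid as additive terms or with 6 groups of 2 plants for differences between hybrids in a step. This scale understates the change of low genes. The scripts were checked on simulated data. Replicates are separate plants by their clone numbers. With 6 groups, or within 1 hybrid, p-values measure the spread between 2 plants per hybrid and stage. With additive terms, that spread also holds any difference between the hybrids in a step. In all fits limma shares the spread over genes.

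The genes and lists were chosen with earlier results of these data known. Named genes were taken from the highest D2 means, the largest rises, the largest smaller steps and the smallest p for each hybrid comparison. Genes shown for the balance of their steps, their level or reads in C, or their D2 spread were picked after their values were seen. The reading of genes chosen in one hybrid in the plants of the other was added after seeing the data. Alternatives were other pseudocounts, scalings and filters, a replicate block, limma-voom on the recovered reads and each library left out. Pathway lists, cell type markers and sequence features need gene names and were not analysed here.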

Additional observations from a re-analysis of the deposited data

Results flagged for a closer look

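Some plants stood apart from the other 3 of their stage, with a gap to the nearest plant that was, as a part of the range of the 4, above Dixon's critical value. In 57 groups of 4 plants looked at, 5 did so. Chance gives about 1 in 20 for values not picked beforehand, but these genes were picked by their values, so that rate does not strictly apply. Replicate 1 of hybrid 85 in C did so in 3: the gap was 0.858 of the range for the share of reads in the stepwise genes, 1 for Potri.006G188400.1 (0.691 RPKM, the others at 0) and 0.909 for Potri.014G103000.1 (22.03 RPKM, the others 5.27 to 6.05 RPKM). That plant is the deepest library, and the part of depth in this was not tested. For Potri.006G188400.1 in C any value above 0 gives a gap of 1, since the other plants were at 0. In D1, the gap was 0.839 for Potri.006G188400.1 in replicate 2 of hybrid 85 (2.56 RPKM, the others 1.43 to 1.58 RPKM) and 0.914 for Potri.007G091100.1 in replicate 2 of hybrid 89 (16.6 RPKM, the others 25.7 to 26.8 RPKM).

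The second step differed between hybrid 89 and hybrid 85 in 7 genes (limma, adjusted p below 0.05 over all tested genes). On the log2 scale the difference was 6.89 in Potri.006G128900.1, 4.50 in Potri.009G081800.1, 4.39 in Potri.004G034400.1, 3.41 in Potri.T137100.1, 2.94 in Potri.015G026300.1, 2.83 in Potri.004G081300.1 and 1.86 in Potri.014G180600.1. In each, the D2 mean was higher and the D1 mean lower in hybrid 89 than in hybrid 85, an order that the call favours.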

How the results depend on the processing

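The rule gave 139 genes. It gave 164 and 187 with pseudocounts of 0.5 and 0.1, which held all 139, and 110 after quantile normalization (105 of the 139) and 110 after median-ratio scaling (107 of the 139). It gave 73 with steps of at least 1.5, 346 with no condition on overlap, and 141 to 201 with 1 library left out. Genes called for the hybrid difference numbered 709, and 339 to 729 with 1 library left out. Of the 139, 2 were called, against 1 with no filter on low values, 5 with limma-voom and 0 to 5 with 1 library left out. For the D1 response the count over all genes was 0, against 3 with no filter, 2 with quantile normalization and 0 to 128 with 1 library left out (0 to 1 of the 139). For the second step it was 495, against 298 with a pseudocount of 0.1, 263 with limma-voom and 22 to 2908 with 1 library left out. Of the 139 it was 7, against 2 with a pseudocount of 0.1, 3 with no filter and 1 to 24 with 1 library left out. The 92 genes with a larger second step in hybrid 89 became 82 to 101 with 1 library left out, and 90 to 100 with other pseudocounts and scalings. All-gene counts with 1 library left out were 678 to 2130 in D1 over C and 6379 to 8353 in D2 over D1. With 1 library left out, genes chosen in hybrid 89 met the rule in hybrid 85 in 21.7 to 30.7% and were called there at the first step in 0 to 23.0% and at the second in 14.3 to 51.9%. Genes chosen in hybrid 85 met the rule in hybrid 89 in 31.9 to 42.5% and were called there in 0 to 21.3% and in 29.6 to 74.6%. With a pseudocount of 0.1 the first-step shares were 6.95% for genes chosen in hybrid 89 and 7.22% for genes chosen in hybrid 85. With no filter they were 0.473 and 3.48%, and the second-step share for genes chosen in hybrid 89 was 24.4%. The cause was not tested. For plants that share a replicate number, the correlation of deviations was -0.04 to 0.08, which cannot exclude that they were handled together. A replicate block gave 560 genes for the hybrid difference, 404 for the second step, 0 for the D1 response and 3, 7 and 0 of the 139. The named genes kept the sign of their hybrid differences. The median difference of all genes in D1 over C changed sign with median-ratio scaling (0.14 and -0.02). Larger second steps in hybrid 89 were 44.0% of the calls over all genes, but 56.5% with no filter and 54.8% with limma-voom. Alternatives for the pathway lists were not run. Few reads in C (a median of 6 per gene in 2 libraries) limit the precision of the first step.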
